A study of Homo sapiens with 2 samples.

Results

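Promoter peaks outside dense peak groups were the 543 regions of a KLF7 ChIP-seq peak list for which at least 1 gene was annotated with the peak in its promoter, on chromosomes 1 to 22 or X, and which did not lie in a run of 5 or more peaks spaced at most 100 kb apart. They made up 28.6% of the 1900 peaks in the list and 94.3% of the 576 promoter peaks, and 33 promoter peaks were left out. The ChIP-seq was carried out in CAL27, a long-established line of human tongue carcinoma cells, grown with 10% FBS, in DMEM/F12 by the labels and in DMEM by the study's methods, and carrying lentivirally delivered KLF7 with a myc tag. There was 1 library precipitated with an anti-MYC antibody and 1 input library without antibody. Both came from cells with the tagged KLF7, and no library from cells without it was used here. The myc tag is a stretch of the human MYC protein, so DNA held by the tagged KLF7 and DNA held by the cells' own MYC cannot be told apart in these libraries. With 1 library per group, no difference between conditions could be tested. The members were chosen by the authors' peak call, which used pileup, fold enrichment and q, so these values are given as descriptions, and the intervals below cover counting error only. The regions share 1 library and are not replicates of each other.

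A promoter is the DNA around the start of a gene where RNA polymerase II and the general transcription factors assemble. Many promoters of broadly expressed genes lie in CpG islands, which are rich in G, C and CG pairs, and a divergent promoter serves a pair of genes that are read in opposite directions from neighbouring starts. KLF7 belongs to the KLF and SP family of zinc finger factors, which bind GC boxes and related CACCC sequences. MYC pairs with MAX, a small basic helix-loop-helix protein, on the E-box CACGTG, which is also read by USF and TFE factors.

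The following sequences show the 2 kinds of site against which the promoters are described below. The first 7 come from members among the 10 with the highest fold enrichment. Each was cut around the CACGTG nearest the summit on the strand of the nearest gene (GRCh38), with CACGTG in capitals, and was limited to 30 bases where an annotated exon overlaps and to 60 bases elsewhere. The KLF16 sequence held an E-box next to a GC box in lower case.
SLC25A12, chr2:171999940-171999969, minus strand: gttggcgtcggtCACGTGgccgcgagcact
AC016876.2/EIF4A1, chr17:7572519-7572548, plus strand: ctgtcgcctccgCACGTGtgagagtgcagg
SNORA9, chr7:44986407-44986436, minus strand: aagccttcactaCACGTGctacttcctctc
CCDC47, chr17:63773837-63773866, plus strand: gctgtgtgggacCACGTGgccagaggcaag
DIAPH1, chr5:141619278-141619337, minus strand: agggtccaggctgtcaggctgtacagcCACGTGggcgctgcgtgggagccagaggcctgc
KLF16, chr19:1864242-1864301, minus strand: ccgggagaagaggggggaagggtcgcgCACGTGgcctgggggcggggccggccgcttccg
LINC01730, chr20:3808255-3808314, plus strand: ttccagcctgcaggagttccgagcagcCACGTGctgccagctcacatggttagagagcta

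The next 3 are the members with the highest fold enrichment that held the 9-base GC box GGGGCGGGG and no CACGTG, cut in the same way, with GGGGCGGGG or its reverse complement in capitals. ZNF337-AS1 tied in fold enrichment with YWHAH, which is not shown.
EIF3B/SNX8, chr7:2354760-2354819, minus strand: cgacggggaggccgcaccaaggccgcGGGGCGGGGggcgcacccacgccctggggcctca
SLC25A40, chr7:87876362-87876391, minus strand: cgcgctgcgcgCCCCGCCCCctcacgccgc
ZNF337-AS1, chr20:25623781-25623840, plus strand: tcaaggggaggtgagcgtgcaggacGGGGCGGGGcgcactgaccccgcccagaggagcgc

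For divergent promoters, the whole stretch between a pair of starts is shown for 3 pairs whose interval overlaps no annotated exon. Capitals mark CACGTG and GGGGCGGGG. ALG3 and ECE2 shared an interval with 1 E-box and no 9-base GC box, AKR7A2 and PQLC2 an interval with 2 GC boxes, and NIFK and TSN an interval with 4 GC boxes.
ALG3/ECE2, chr3:184249549-184249649, plus strand: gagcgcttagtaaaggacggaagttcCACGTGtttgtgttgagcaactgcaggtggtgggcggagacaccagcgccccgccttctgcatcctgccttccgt
AKR7A2/PQLC2, chr1:19312147-19312325, plus strand: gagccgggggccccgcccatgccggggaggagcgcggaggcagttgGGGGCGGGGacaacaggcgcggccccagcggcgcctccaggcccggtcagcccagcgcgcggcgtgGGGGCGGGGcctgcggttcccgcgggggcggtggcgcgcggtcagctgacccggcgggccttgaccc
NIFK/TSN, chr2:121736924-121737102, plus strand: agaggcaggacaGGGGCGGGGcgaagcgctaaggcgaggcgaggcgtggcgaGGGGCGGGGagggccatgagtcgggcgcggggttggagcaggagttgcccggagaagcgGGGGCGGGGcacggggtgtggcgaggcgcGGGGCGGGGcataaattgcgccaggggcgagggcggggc

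The member with the highest fold enrichment had neither sequence within 100 bp of its summit. At CYR61, the summit lay in a run of CA units of 54 bp, printed in capitals.
CYR61/AC092807.2, chr1:85580496-85580626, plus strand: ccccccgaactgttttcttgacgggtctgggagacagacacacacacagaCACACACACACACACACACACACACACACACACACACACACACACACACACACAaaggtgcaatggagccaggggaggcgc

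Coverage of the promoter peaks was shallow. The pileup, which counts the ChIP fragments that cover the summit, ranged from 7 to 521 with a median of 12 and quartiles of 11 and 15. Fold enrichment, which is the pileup over the local background rate with 1 added to each, ranged from 2.19 to 45.5 with a median of 5.27 and quartiles of 4.59 and 6.24. Since an exact Poisson interval for a pileup of 12 runs from 6.20 to 21.0, most members could not be ranked against each other at this depth. A fold enrichment of at least 5 was reached by 318 members (58.6%) and by 52.5% of all peaks in the list. The same contrast chose the members, so nothing is read from this pair of shares. For the 1014 other peaks outside dense groups, the median pileup was 13 and the median fold enrichment 5.13.

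The lowest members by q-value lay just inside the authors' limit of 0.05. They were SNORD15A, a small nucleolar RNA gene within the ribosomal protein gene RPS3 (pileup 9, fold enrichment 3.55, q = 0.0459), the zinc finger gene ZNF639 (pileup 10, fold enrichment 3.44, q = 0.0447), and SNORD101 with the ribosomal protein gene RPS12 (pileup 7, fold enrichment 3.85, q = 0.0407). On the other limit, 11 members lay in groups of 4 peaks, with fold enrichments from 2.97 at AC102953.1 to 9.64 at ALG3 and ECE2. The promoter peaks just outside, in groups of 5, had fold enrichments of 4.70 at RECQL5, 5.93 at ITGB4, 6.06 at RRP1B, 7.27 at GET4, 5.41 at COX19 and 6.72 at AC073957.1. Most members stood alone, since 385 had no other peak within 100 kb, 101 lay in groups of 2, 46 in groups of 3 and 11 in groups of 4. Repeated sequence was rare. In 498 members no 31-base word occurred more than once in GRCh38, and in 5 members over 50% of the words did. One of these, the promoter of the pseudogene ROCK1P1, stood apart with 521 fragments over a background rate of 237.6 and 2.19-fold enrichment.

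Single-gene promoters made up most of the peaks, and their fold enrichments covered much the same range as those of divergent promoters. A promoter entry for exactly 1 gene was found in 452 members (83.2%, 95% Wilson interval 79.9 to 86.1%). Another 82 (15.1%) had entries for 2 genes and 9 for 3 or more. Of the 82, 31 (5.71% of members, 4.05 to 7.99%) were divergent, with the genes reading away from each other, 15 were on opposite strands with overlapping starts, 13 were on 1 strand and 23 could not be resolved because the strand of a gene was not found. Median fold enrichment was 5.24 (quartiles 4.56 and 6.23) for single-gene and 5.06 (4.61 and 6.35) for divergent promoters, and the median pileup was 12 in each class. The remaining classes had medians between 5.0 and 5.55, and the quartile ranges of the single-gene and divergent classes overlapped over nearly their whole width.

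**Figure D1:**
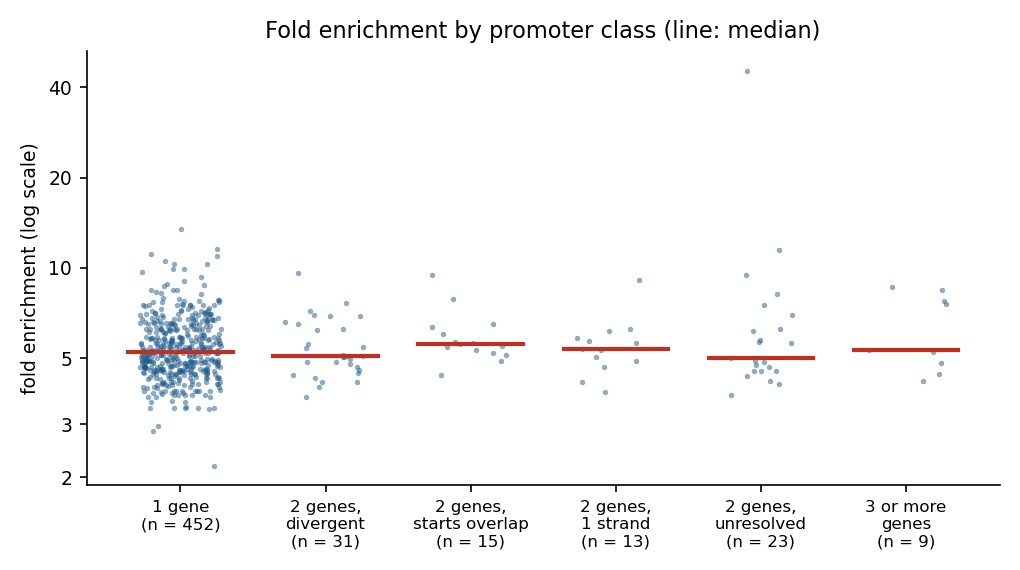
Fold enrichment of each member by promoter class on a log axis, with 1 point per peak and a line at the class median. The medians lie between 5.0 and 5.55 in all 6 classes, and the point at 45.5 is the CYR61 promoter, whose second gene has no strand in the sources used.

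More peaks lay near the starts of neighbouring genes than the promoter entries alone show. Of the 452 single-gene members, 211 touched no other gene, 176 also lay inside a gene on the opposite strand, 13 inside a gene on the same strand and 52 inside a gene whose strand was not resolved. For 122 of the 176 (69.3%), the starts of the pair were within 1000 bp of each other, 70 of them in divergent arrangement and 52 with overlapping starts. In these 122 the summit lay at a median of -311 bp from the start of the gene with the promoter entry (negative values are upstream) and 329 bp inside the other gene. Both genes were protein-coding in 66, and in 34 a gene that was not protein-coding had the promoter entry while the gene around the summit was protein-coding. The median fold enrichment of the 122 was 5.32, and 31 (25.4%) held CACGTG.

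SLC25A12, the mitochondrial aspartate and glutamate carrier, was the strongest of these opposite-strand promoters, with 25 fragments at the summit (exact Poisson interval 16.2 to 36.9) and 13.5-fold enrichment. Its summit lay 122 bp upstream of SLC25A12 and 38 bp inside METAP1D, a mitochondrial methionine aminopeptidase whose start is 84 bp away. WDR92 and PNO1 had a fold enrichment of 9.88 with the summit 16 bp inside PNO1, a ribosome assembly factor. At LINC02340 the summit lay 216 bp inside the ribosomal protein gene RPL21, and the fold enrichment was 9.65. MGME1, a mitochondrial DNA exonuclease, had 28 fragments at the summit and was enriched 9.07-fold, with the summit 296 bp upstream of MGME1 and 363 bp inside the sorting nexin gene SNX5. In each of these 4 pairs, the summit lay upstream of the gene with the promoter entry and inside the partner, which was listed only by a body feature.

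Among the 31 divergent members there were 30 gene pairs, since the SAMD10 and PRPF6 pair carried a peak near each start. The starts were 51 to 2132 bp apart with a median of 249 bp, and 18 pairs of starts were within 300 bp. The summit fell between the starts in 25 of 31 members and lay a median of 108 bp from the middle. Both genes were protein-coding in 18 members and 1 of them in 11. The strongest divergent promoter was that of ALG3, a mannosyltransferase of N-glycan assembly, and ECE2, an endothelin-converting enzyme. Its pileup was 30 fragments (20.2 to 42.8) and its fold enrichment 9.64, and the summit lay 64 bp upstream of ALG3 and 38 bp upstream of ECE2, within the 101 bases printed above. The ECE2 start in the deposited annotation is not the start of ECE2 in GENCODE v44, where the gene begins further downstream.

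The divergent promoters that came next were weaker. The peak on the PRPF6 side of the SAMD10 interval had 21 fragments at the summit and was enriched 7.63-fold, and PRPF6 is a component of the spliceosome. MAZ, a zinc finger factor that itself binds G-rich DNA, shared a promoter with the long non-coding RNA AC009133.4 at a fold enrichment of 7.16. The ubiquitin ligase gene MARCH6 and AC012640.2 shared 22 fragments at a summit enriched 6.96-fold, 45 bp upstream of MARCH6 and 49 bp upstream of AC012640.2, although by the GENCODE v44 start this summit lies 412 bp inside AC012640.2. The potassium channel gene KCNC4 and KCNC4-AS1 (6.92) and the histone chaperone gene DNAJC9 and DNAJC9-AS1 (6.48) had the summit outside the interval. MTERF3, a regulator of mitochondrial transcription, with the phosphatidylserine synthase gene PTDSS1 (6.91), and RAB34 with SNORD42B (6.62) had it inside. In the members with overlapping starts, the summit lay between the starts in 1 of 15.

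**Figure D2:**
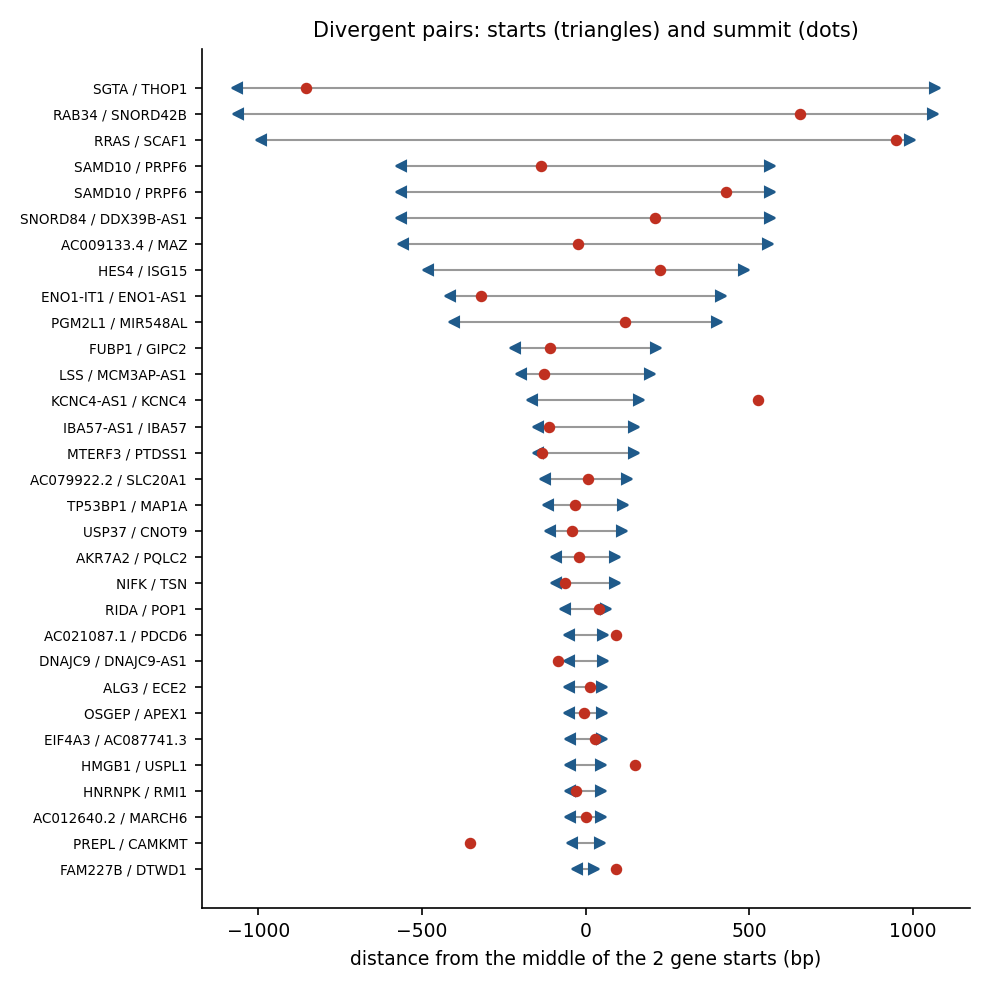
Position of the summit (red dots) between the starts of the 31 divergent members, in bp from the middle of the pair of starts, with triangles at the starts pointing along each gene. The dot lies between the triangles in 25 rows and outside them in the other 6.

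Summits gathered just upstream of gene starts. Relative to the nearest gene in the deposited annotation, the median distance was -78 bp, with quartiles of -242 and 98.5 bp. The summit was upstream in 355 members and downstream in 188. It was within 50 bp of the start in 78, within 100 bp in 162 (29.8%) and within 500 bp in 422 (77.7%), and 13 lay more than 2000 bp away. The interval from 100 bp upstream to the start held 109 members (20.1%), against 52 (9.58%) in the first 100 bp downstream. This order is partly fixed by the annotation, in which a promoter entry mostly lies upstream of its gene. Where the nearest gene was the one with the promoter entry (410 members), the median was -136.5 bp and 350 summits were upstream. Where it was another gene (133 members), the median was 200 bp and 128 summits were downstream, inside that gene. Measured to the nearest start of any protein-coding transcript in GENCODE v44, the median was -56 bp and 253 members (46.6%) were within 100 bp.

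**Figure D3:**
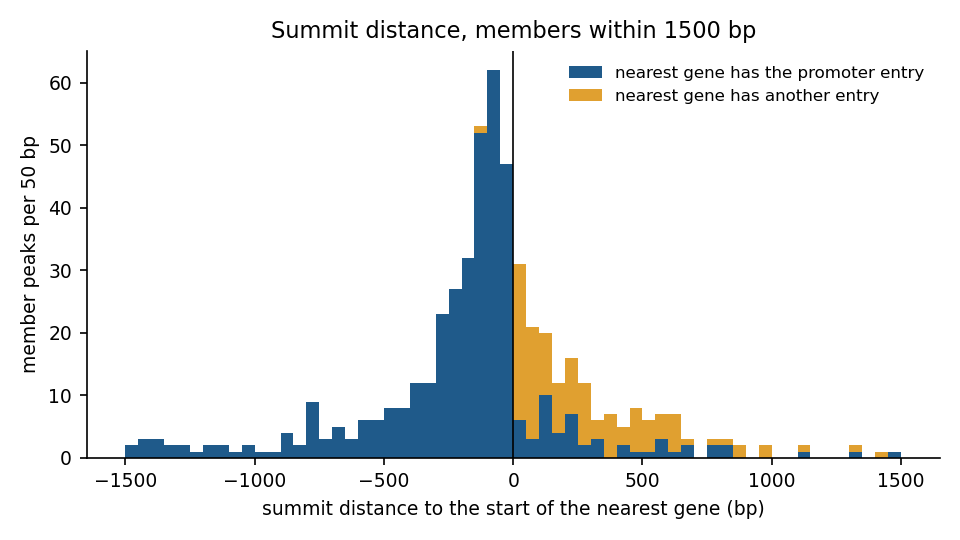
Number of members per 50 bp of summit distance to the nearest gene start, within 1500 bp, coloured by whether that gene has the promoter entry. Bars peak in the first 150 bp upstream, and the downstream side is mostly made of members whose nearest gene has another entry.

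Divergent members more often had the summit close to a start. A summit within 100 bp of the nearest start was found in 16 of 31 divergent members (51.6%) and in 121 of 452 single-gene members (26.8%). A divergent member has starts on both sides, so the distance to the nearest is shorter by construction. Fold enrichment hardly varied with distance. The median was 5.32 in the 109 members with the summit in the last 100 bp before the start, 5.32 in the 246 members farther upstream and 5.11 in the 188 members downstream.

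Protein-coding genes predominated among the 633 genes named in promoter entries. A biotype was found for 564 (89.1%), of which 421 were protein-coding (74.6%, 70.9 to 78.1%), 85 long non-coding RNA genes (15.1%), 23 small nucleolar RNA genes (4.08%), 13 microRNA genes, 13 pseudogenes, 2 small nuclear RNA genes, 3 other small RNA genes and 4 unclassified genes. The 421 were 2.11% of the 19970 protein-coding genes in GENCODE v44. By peak, 353 members named protein-coding genes alone, 96 non-coding genes alone, 47 a protein-coding gene beside another kind of gene, and 47 no protein-coding gene but at least 1 without a biotype. Median fold enrichment was 5.27 where all genes were protein-coding and 5.19 where all were non-coding. CACGTG was present in 30.6% (26.0 to 35.6%) of the former and 21.9% (14.8 to 31.1%) of the latter, and the intervals overlapped. The summit of the all non-coding members lay farther from the nearest start, at a median of -148 bp compared with -81.0 bp.

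Several small RNA genes lay inside host genes whose start was closer to the summit than their own. SNORA9, a small nucleolar RNA gene inside the host transcript SNHG15, had the strongest non-coding member, with 34 fragments at the summit (23.5 to 47.5) and 10.9-fold enrichment. Its summit lay 929 bp upstream of SNORA9 and 522 bp inside SNHG15. SNORA14B lies in TOMM20, a receptor of the mitochondrial outer membrane, and had 18 fragments at the summit and 8.20-fold enrichment. A single peak with 21 fragments at the summit and 8.61-fold enrichment was entered for MIR17, MIR18A, MIR19A and MIR20A of the MIR17 cluster, with the summit 1478 bp upstream of MIR17. At SLC3A2, which encodes the heavy chain of amino acid transporters, the entry covered SNHG1 and 5 of its small nucleolar RNAs as well, and the fold enrichment was 7.72 with the summit 10 bp upstream of SLC3A2.

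Long non-coding RNA genes and pseudogenes also had members of their own. LINC01730 had 22 fragments at the summit and was enriched 9.93-fold, with the summit 45 bp upstream of its start. The pseudogene ADI1P1 had 24 fragments at the summit and was enriched 9.34-fold, with the summit 1403 bp upstream. AC122710.2, now named LINC02236, had 24 fragments at the summit and was enriched 8.74-fold at 108 bp upstream. All 3 held CACGTG within 100 bp of the summit. SLC2A1-AS1, a divergent transcript of the glucose transporter gene SLC2A1, had 16 fragments at the summit, 7.74-fold enrichment and no CACGTG.

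Among single members, CYR61, which encodes a secreted matrix-associated protein, stood far above the rest. Its pileup was 116 fragments (95.9 to 139) and its fold enrichment 45.5, against 13.5 for the next member, SLC25A12. The summit lay 215 bp upstream of CYR61. AC073263.2, entered inside the mitochondrial folate enzyme gene MTHFD2, was enriched 11.5-fold with 25 fragments at a summit 5 bp inside MTHFD2, and held neither CACGTG nor GGGGCGGGG. EIF4A1, the RNA helicase of translation initiation, was enriched 11.5-fold with 23 fragments at a summit 154 bp upstream. PLD6, a phospholipase of the mitochondrial surface, was enriched 11.1-fold with 26 fragments at a summit 130 bp upstream. The intervals of the pileups at SLC25A12, MTHFD2, EIF4A1 and PLD6, from 14.6 to 38.1 fragments in all, overlapped each other.

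The members ranked below these were of like strength. CCDC47, entered inside the RNA helicase gene DDX42, was enriched 10.5-fold with 26 fragments at a summit 271 bp inside DDX42. DIAPH1, a formin that nucleates actin filaments, was enriched 10.3-fold with 21 fragments at the summit. KLF16, another member of the KLF family, was enriched 10.3-fold with 19 fragments at a summit 688 bp upstream. DIAPH1 and KLF16 held 2 E-boxes each. Other genes of the MYC network and the KLF family had lower values. MAX had 20 fragments at the summit and was enriched 7.20-fold with an E-box 15 bp from the summit. MXD3, a MAX partner that represses, had a fold enrichment of 6.0 with an E-box 28 bp from the summit. KLF3 had a fold enrichment of 5.90 and no E-box. A total of 17 genes were named in 2 or more members, among them RHOD, TMCO1, SYNCRIP, LSS and DCAF17. At DCAF17 the fold enrichment was 8.84 at 799 bp upstream and 4.86 at 249 bp upstream.

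The promoter peaks were rich in G and C. Within 100 bp of the summit, a window of 201 bases, the median GC content was 69.7% and the median ratio of observed to expected CpG was 0.869. The 19970 protein-coding promoters, taken as the 201 bases ending at the gene start, had medians of 60.7% and 0.688, and the other peaks outside dense groups 60.2% and 0.575. Windows of peaks were thus centred on the summit and those of promoters were not. The part of this difference in the shares below was not tested, but counts in the like window are given for CACGTG and GGGGCGGGG. All sequences were searched on both strands as exact letters, and a match describes the letters and not a bound factor.

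The E-box CACGTG was present in 149 members (27.4%, 23.9 to 31.3%), in 6.29% of all protein-coding promoters (5.96 to 6.63%) and in 19.0% of the other peaks (16.7 to 21.6%). The 3 intervals did not overlap, but the promoter windows were placed differently. In the window that ends at the gene start, 53 of the 421 protein-coding genes with a member held CACGTG. That was fewer than the 119 that held GGGGCGGGG. CACGCG, which differs from the E-box at 1 base, was present in 148 members (27.3%), 9.46% of all promoters and 16.1% of the other peaks. Either of these was found in 263 members (48.4%) and both in 34. The longer palindrome TCACGTGA, which contains CACGTG, was rare in members (1.10%) and in all promoters (0.951%). The E-box share was highest where GC content was lowest. Below 60% GC it was 38.4% of 86 members compared with 4.54% of promoters, from 60 to 70% it was 30.7% of 205 compared with 7.96%, and at 70% or more it was 21.0% of 252 compared with 7.80%. At 70% or more, the other peaks had 23.2% (18.6 to 28.6%), and their interval overlapped that of the members (16.5 to 26.5%).

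The GC box GGGGCGGGG was present in 125 members (23%, 19.7 to 26.7%), 17.8% of all promoters (17.3 to 18.4%) and 9.47% of the other peaks (7.82 to 11.4%). In the window that ends at the gene start, 119 of the 421 protein-coding genes with a member held GGGGCGGGG. Its share rose with GC content in members and promoters alike. It was 4.65% of members compared with 3.57% of promoters below 60% GC, 17.6% compared with 18.8% from 60 to 70%, and 33.7% (28.2 to 39.8%) compared with 44.7% (43.3 to 46.1%) at 70% or more. GGGCGG, the core contained in it, was present in 68.3% of members and 46.8% of promoters. CCNCNCCC, the looser KLF-type sequence that overlaps the GC box, was present in 68.7% and 56.7%. Median GC content was higher in members than in promoters. The part of base composition in the shares of GGGCGG and CCNCNCCC was not tested. CACGTG and GGGGCGGGG were found together in 28 members, where the median fold enrichment was 5.84. In 205 members (37.8%) CACGTG was not found, and nor was CACGCG or GGGGCGGGG. The median fold enrichment there was 4.93.

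**Figure D4:**
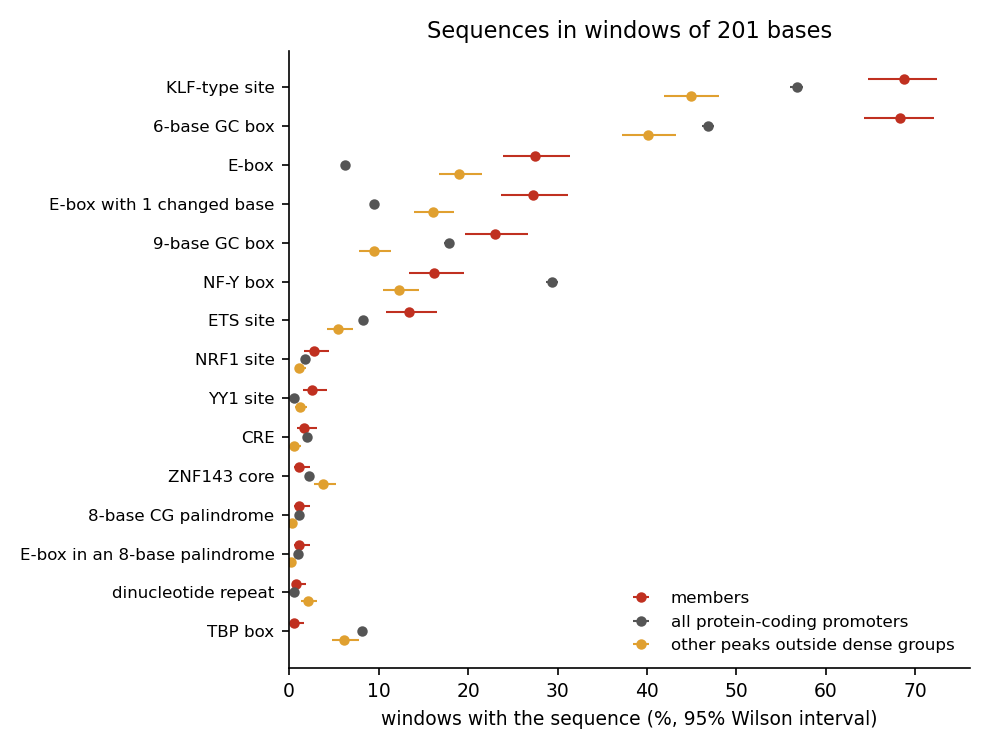
Share of windows of 201 bases with each sequence, with 95% Wilson intervals, for the members, all 19970 protein-coding promoters and the other peaks outside dense groups. Windows of members and other peaks are centred on the summit, and those of promoters end at the gene start. The sets are not matched for GC content. The E-box is at 27.4% in members and 6.29% in all promoters, whereas the 9-base GC box is at 23% and 17.8% and the TBP box at 0.552% and 8.13%.

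Other promoter sequences varied in both directions. These shares were not matched for GC content, which was higher in members. CCAAT, the NF-Y box, was present in 16.2% of members, 29.4% of promoters and 12.3% of the other peaks. TATAAA, the TATA box, was present in 0.552%, 8.13% and 6.11%. The values that follow are for members and promoters. CCGGAAG, an ETS site, was present in 13.4% and 8.24%, and AAGATGGCG, a YY1 site, in 2.58% (1.54 to 4.28%) and 0.541%. The cyclic AMP response element TGACGTCA was present in 1.66% and 1.95%, the NRF1 site GCGCATGCG in 2.76% and 1.79%, ACTACAA in 1.10% and 2.25%, and TCTCGCGA in 1.10% and 1.15%. A run of 8 or more CA units was present in 0.737% of members and 0.586% of promoters.

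E-boxes sat closer to the summit than GC boxes. The median distance from the summit was 27.5 bp for 162 E-boxes and 50 bp for 177 GC boxes, and 72 E-boxes (44.4%) and 47 GC boxes (26.6%) lay within 25 bp. The bases next to the E-box also differed from those in promoters at large. CCACGTGC made up 29.0% of the 162 sites in members and 12.9% of 1387 sites in promoters, and CCACGTGG 25.3% and 11.5%. TCACGTGA made up 3.70% and 14.9%, and CCACGTGA 9.26% and 23%. A site with C or G outside both ends was found in 61.7% of cases in members (54.1 to 68.9%) and 29.8% in promoters (27.5 to 32.3%), and one with A or T outside both ends in 9.88% and 23.3%. The median GC content of members was higher, and the part of base composition in these shares was not tested. In the sequences printed above, CCACGTGG is found at CCDC47 and DIAPH1, and CCACGTGC at LINC01730 and, on the other strand, at KLF16.

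Members ranked high carried CACGTG more often than the longer GGGGCGGGG. The shorter core GGGCGG, present in 68.3% of all members, was not counted by rank. Among the 20 members with the highest fold enrichment, 15 (75%) held CACGTG and 1 held GGGGCGGGG, among the top 50 there were 25 and 7, and among the top 100 there were 44 and 15. Ranked by pileup, the top 20 held CACGTG in 9 (45%) and GGGGCGGGG in 1, so the share in the top 20 depended on the measure, while the top 100 held 42 and 15. The 12 members with 2 or more E-boxes had a median fold enrichment of 6.22 and a median pileup of 19. By position, GC boxes were most common in the last 100 bp before the start, in 41 of 109 members (37.6%, 29.1 to 47.0%), and ranged from 13.6 to 25.9% elsewhere. E-boxes showed no such place, with shares from 22.9 to 36.2% over 8 ranges of distance. By class, CACGTG was present in 28.5% of single-gene members (24.6 to 32.9%) and 29.0% of divergent members (16.1 to 46.6%). GGGGCGGGG was present in 22.6% (19.0 to 26.6%) and 35.5% (21.1 to 53.1%), and these intervals overlapped.

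Seen from the genes, a promoter with an E-box more often had a member. Of the 1256 protein-coding promoters with CACGTG, 53 (4.22%, 3.24 to 5.48%) belonged to a gene with a member, compared with 368 of 18714 without it (1.97%, 1.78 to 2.18%). For GGGGCGGGG the shares were 3.34% and 1.84%, for GGGCGG 3.05% and 1.28%, and for CACGCG 4.13% and 1.90%. Promoters with AAGATGGCG (6.48%, 3.17 to 12.8%, compared with 2.08%) and TCTCGCGA (6.11%, 3.68 to 10.0%, compared with 2.06%) had higher shares still. The order was reversed for CCAAT (1.93% and 2.18%), ACTACAA (1.78% and 2.12%) and the CA run (0.855% and 2.12%). The E-box was thus 1 of several sequences with this pattern. With a single E-box in the form CCACGTGG the share was 8.39% (13 of 155, 4.97 to 13.8%), and with TCACGTGA it was 2.03% (3 of 148, 0.692 to 5.78%). Promoters with TATAAA had a member in 0.739% of cases (0.423 to 1.29%) and those without it in 2.23%. The great majority of promoters with any of these sequences thus had no member.

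The nearest genes covered many cellular functions. Gene Ontology terms in the deposited table were available for 378 different nearest genes of members and 440 of the other peaks outside dense groups. The terms were used as deposited and are broad. EIF4A1 and the ribosomal protein gene RPL21 had the mitochondrion term, and EIF4A1 also had those of the cytoskeleton and the plasma membrane. Genes with the mitochondrion term numbered 68 (18.0%, 14.4 to 22.2%) compared with 50 (11.4%, 8.73 to 14.7%), and these intervals overlapped slightly. The highest fold enrichments among these nearest genes were at SLC25A12, MTHFD2 and EIF4A1, and MTHFD2 has no promoter entry. COX15, an enzyme of heme A synthesis, had a fold enrichment of 8.24 without an E-box, and 23 of the 68 held one. Genes of the extracellular region were fewer among members, with 21 (5.56%, 3.66 to 8.34%) compared with 50 (11.4%, 8.73 to 14.7%), and these intervals did not overlap. They were led by CYR61, CRIM1 (7.09), which has no promoter entry, the kallikrein gene KLK10 (7.0) and EFEMP2, a fibulin of elastic fibres (6.78). Extracellular matrix genes numbered 3 (0.794%) compared with 10 (2.27%), and these intervals overlapped.

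Genes of RNA and protein production were spread widely. Nucleolar genes numbered 40 (10.6%) compared with 32 (7.27%), led by PNO1 (fold enrichment 9.88) and RPL21 (9.65), neither with a promoter entry, and DCAF17 (8.84). The splicing regulator PTBP1 had 7.36 and MDN1, an ATPase of ribosome assembly, 7.21. Translation genes numbered 23 (6.08%) compared with 25 (5.68%), among them EIF4A1, RPL21 and EEF2K, the kinase of elongation factor 2 (7.53). Transfer RNA metabolism had 8 genes (2.12%) compared with 3 (0.682%), and ribosome biogenesis 4 (1.06%) compared with 13 (2.95%). The intervals overlapped for both of these terms. Cell cycle genes numbered 45 (11.9%) and 42 (9.55%), with the nuclear pore component RANBP2 at 8.42. The shares of the nucleus (50 and 47.5%), the cytoskeleton (12.2 and 12%), signal transduction (22.2 and 21.6%) and the plasma membrane (19.0 and 19.3%) lay close together. Lysosomal genes numbered 6 (1.59%) compared with 11 (2.5%), led by CCDC115 (6.44), ARSA (5.33) and the kinase SRC (4.63). Epidermis development had 4 genes (1.06%) compared with 9 (2.05%), namely RAC1 (5.07), SNAI1 (4.94), JAG1 (4.67) and MYO7A (4.28). The intervals overlapped for both terms. No E-box was found in either group, but 6 and 4 genes are too few to set against the 27.4% of all members.

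**Figure D5:**
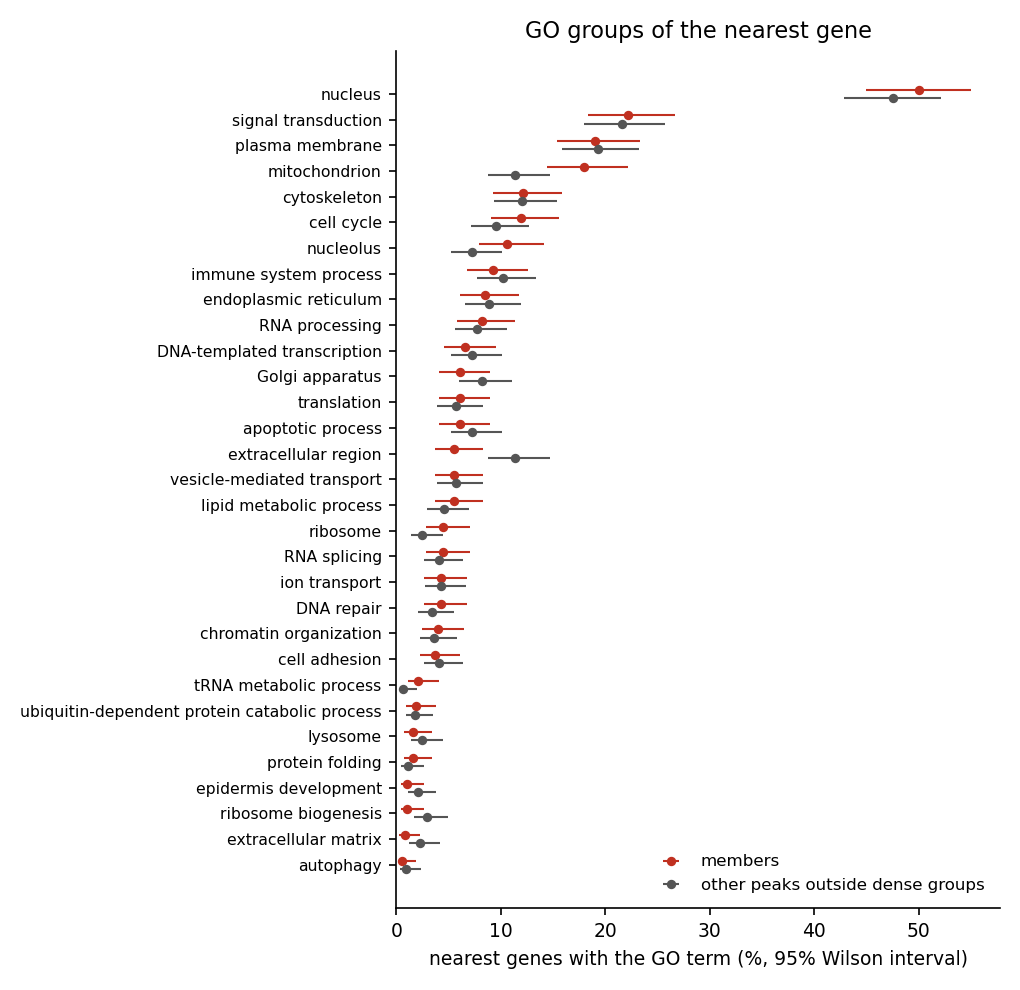
Share of the nearest genes with each Gene Ontology term, with 95% Wilson intervals, among 378 genes of members and 440 genes of the other peaks. The extracellular region is at 5.56% and 11.4%, with intervals that do not overlap. The mitochondrion is at 18.0% and 11.4%, with intervals that overlap slightly, and the intervals of the other terms overlap as well.

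Gene families were counted first by the promoter entry, and read against the 2.11% of all protein-coding genes that had a member. Solute carriers, which move small molecules across membranes, had 15 of 385 genes (3.90%, 2.38 to 6.33%), and SLC25A12 (13.5), SLC3A2 (7.72) and SLC25A40 (7.57) led them. Their other fold enrichments ran from 3.70 at SLC25A36 to 6.24 at SLCO4A1. Translation initiation factors had 4 of 55 (7.27%, 2.86 to 17.3%), namely EIF4A1 (11.5), EIF3B (7.89), EIF3M (6.52) and EIF4A3 (4.56). Genes named NDUF, called complex I here, had 3 of 48, with NDUFS1 at 7.59, NDUFV3 at 7.30 and NDUFV2 at 5.65. Splicing factors had 4 of 60, which were HNRNPA2B1, HNRNPK, HNRNPF and HNRNPUL1 with fold enrichments from 4.59 to 5.63. Cytosolic ribosomal proteins had 4 of 83, among them RPS27L, RPLP2 and RPS12, with fold enrichments from 6.37 to 3.85, and none of these 4 held an E-box. By promoter entry, the lower interval bound was above 2.11% for solute carriers (2.38%), initiation factors (2.86%), complex I (2.15%) and splicing factors (2.62%), and below it for ribosomal proteins (1.89%). In all, 27 families were counted, and the bounds were not adjusted for that number.

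These counts depended on which gene of a close pair had the promoter entry. Counted by a member summit within 1000 bp of the GENCODE v44 start, whichever gene had the entry, 536 protein-coding genes (2.68%) had a member. Cytosolic ribosomal proteins then had 12 of 83 (14.5%, 8.47 to 23.6%), with fold enrichments from 3.55 at RPS3 to 9.65 at RPL21, and the peaks at RPL35 and RPL12 held an E-box. Splicing factors had 8 of 60 (13.3%, 6.91 to 24.2%), led by SRSF1 at 9.50, and initiation factors 6 of 55 (10.9%, 5.10 to 21.8%). Aminoacyl-tRNA synthetases, which charge transfer RNAs, had 0 by promoter entry and 4 of 36 by distance (11.1%, 4.41 to 25.3%), namely YARS1 (6.83), WARS2 (6.56), IARS1 (6.15) and FARS2 (5.45). Complex I had 4 of 48 with a lower bound of 3.29%, and solute carriers 16 of 385 with a lower bound of 2.57%. The complex I gene added by distance was NDUFAF8, which encodes an assembly factor and not a subunit. Taken from the count but not from the 48 genes named NDUF, it leaves 3 of 48, with a lower bound of 2.15%. The share among subunits alone was not computed. By distance, the lower bound was therefore above 2.68% for ribosomal proteins, splicing factors, initiation factors and synthetases. It was above 2.68% for complex I with NDUFAF8 counted but not at 3 of 48, and below it for solute carriers.

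Several families had few members or none. Zinc finger genes named ZNF had 5 of 516 by promoter entry (0.969%, 0.415 to 2.25%) and 6 by distance, and olfactory receptors, which work mainly in olfactory neurons, had 1 of 416 by either count, OR9A4 at 6.41. By promoter entry and by distance alike, no member was found among 55 keratins, 44 collagens, 79 histone genes, 12 laminins and 10 exosome genes. The 27 mitochondrial translocases had none by promoter entry and TOMM20 by distance, with the peak listed at SNORA14B. For 79 histone genes, a count of 0 has an upper Wilson bound of 4.64%. The bound is 6.53% for keratins, 8.03% for collagens, 24.2% for laminins and 27.8% for exosome genes. A share of 2.11% was therefore within reach of counting error in each of these families. Integrins, the adhesion receptors, had 2 of 30, ITGA6 at 5.75 and ITGA2 at 4.49. Both lay in single-gene promoters, 26 bp downstream and 99 bp upstream of the start.

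Members were uneven over the chromosomes. There were 27.2 members per 1000 protein-coding genes in all. Chromosome 20 had 31 members, or 56.8 per 1000 genes (exact Poisson interval 38.6 to 80.6), and chromosome 4 had 5, or 6.61 (2.14 to 15.4). The X chromosome had none over 859 genes, which allows up to 4.29 per 1000, and it carried 9 peaks of any kind. The median background rate was 1.66 fragments on chromosome 20, 1.54 on chromosome 4 and 1.48 over all members. The part of the background rate in these counts was not tested.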

How the data were processed

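ChIP-seq was analysed from CAL27 cells carrying myc-KLF7, with 1 anti-MYC library and 1 input library. The submitters' processing notes and the methods name Trimmomatic 0.36, BWA 0.7.15, Samtools 1.3.1, MACS2 2.1.1.20160309 with q below 0.05, FastQC, ChIPseeker and hg38. The authors deposited 1 annotated peak table. The deposited pileup is a signal that counts ChIP fragments covering the summit. The deposited fold enrichment is a ratio, (pileup + 1) over (background rate + 1). The authors' -log10 q is the adjusted q-value of the Poisson test at each summit, and their -log10 p was not used. No read totals are given in the table, so depth is seen only through pileups, and 0 columns of per-sample values were left unused.

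All peaks were joined across gaps of at most 100 kb, groups of 5 or more peaks were dropped, and the remaining peaks with any promoter entry on chromosomes 1 to 22 and X were kept. The members, the lists and the rules were chosen with earlier results of these data known. Gene starts in the deposited annotation count from 0 and were shifted by 1. Strand and start came from that annotation or GENCODE v44. Biotypes came from the identifier, then the GENCODE v44 name, then a RefSeq symbol or unambiguous synonym. Sequences came from GRCh38. Genes were named by rank (10 highest fold enrichment, 5 further by q, 8 divergent, 5 non-coding, 3 per Gene Ontology group, 3 lowest q, family members), and WDR92, SNORA14B, the MIR17 cluster, SLC2A1-AS1, COX15, PTBP1, MDN1, RANBP2, EFEMP2, MAX, MXD3, KLF3, DCAF17 at its second peak and the genes with several peaks were picked after their values were seen. A few items that these rules would name are not reported here. Shares have 95% Wilson intervals and pileups exact Poisson intervals, both for counting error only, and no test was run. The motif search, the joining of peaks into groups and the Wilson intervals were tested on simulated data, and the sorting into promoter classes was not. Alternatives covered gaps, group sizes, peak thresholds, promoter definitions, repeated sequence, windows, gene starts and, for families, the distance to the summit. Python 3.11.15 was used with numpy 2.4.6, pandas 2.3.3, scipy 1.17.1, pysam 0.24.0 and matplotlib 3.10.9.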

Additional observations from a re-analysis of the deposited data

How the results depend on the processing

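Of 107 alternative values for 37 results, 87 stayed within their limits, 20 moved and 0 reversed. The limits were the Wilson interval for shares, 1.5 times for counts and 25 bp for the median distance. For median fold enrichment the limit was the quartile range of the members, which is wide, and every such value stayed within it. Requiring a fold enrichment of at least 5 left 318 of 543 members. Counting opposite-strand pairs with overlapping starts as divergent raised the divergent share from 5.71 to 8.47%. Keeping only members whose nearest gene has the promoter entry moved the median summit distance from -78 to -136.5 bp. Counting genes without a biotype as non-coding lowered the protein-coding share from 74.6 to 66.5%. A window of 50 bp on each side of the summit gave CACGTG in 18.8% and GGGGCGGGG in 12.7% of members, and the whole peak gave 31.7% and 28.2%, against 27.4% and 23% within 100 bp. Centring the windows of all protein-coding promoters on the gene start, an alternative chosen after seeing the data, gave 5.88% and 15.9% in place of 6.29% and 17.8%. Counting family genes by distance to the summit, also chosen after seeing the data, moved 10 of 27 families by over 1.5 times, among them ribosomal proteins from 4 to 12 genes and splicing factors from 4 to 8. No paired analysis was possible because each group had 1 library and no test was run. Shallow pileups, the missing replicate and the missing library without myc-KLF7 limit every value given here.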
